A study of Homo sapiens with 8 samples.

Results

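The genes of the proteasome, the barrel-shaped protease that degrades ubiquitin-tagged proteins, were followed through RNA-seq profiles of OVISE, a human cell line derived from a clear cell carcinoma of the ovary. Members were the rows of the authors' table whose transcript accessions led to 1 symbol that starts with PSMA, PSMB, PSMC, PSMD, PSME, PSMF or PSMG and a digit, or to POMP, ADRM1 or SEM1, without antisense genes. The rule found 70 rows of 27757, with 54 symbols, of which 50 are proteasome genes and 4 match by letters only. PSME2 shares its row with the microRNA gene MIR7703 and is given apart, and 11 antisense rows were left out.

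The series asks how SYK, a non-receptor tyrosine kinase, shapes transcription that depends on the EGF receptor. Its 4 groups of 2 libraries each were SYK-KO cells given EGF, untreated SYK-KO cells, SYK-WT cells given EGF and untreated SYK-WT cells. EGF was used at 50 ng/ml for 24 h. Per the labels, the knockout was made with a Cas9 nickase and a pair of guides to exon 2 of SYK, was selected with puromycin and grown from isolated single cells, and was checked by immunoblot. How many clones the SYK-KO libraries represent, and whether the SYK-WT cells are the parental line or a clone, is not given in the sources used here. The labels leave unsaid whether both libraries of a group derive from different cultures, so the p-values reflect the spread between the sequenced libraries, and this can be technical.

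The standard proteasome is a core of stacked alpha and beta rings (20S) capped by a regulatory particle (19S). The ATPases of the cap unfold a protein, its other subunits recognise ubiquitin and remove it, and 3 beta subunits cut the chain inside the core. Dedicated chaperones assemble both parts, other activators can replace the cap, and cells exposed to interferon swap in the catalytic subunits of the immunoproteasome. Transcription of the subunits is known to be raised together by the factor NRF1 (gene NFE2L1) when proteasome activity is limiting.

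SYK itself was listed at 2.80 and 3.16 FPKM (fragments per kilobase of transcript, scaled to the mapped fragments) in SYK-KO EGF cells, 3.11 and 3.43 FPKM in SYK-KO cells, 3.88 and 3.62 FPKM in SYK-WT EGF cells and 4.91 and 5.30 FPKM in SYK-WT cells. Every SYK-KO library lay below every SYK-WT library, but an edited exon can leave the transcript in place, so these levels do not test the knockout. The carcinoma markers PAX8 (148 to 234 FPKM) and EPCAM (465 to 564 FPKM) were high in every library, and NAPSA was low, at 0.787 to 1.26 FPKM in the SYK-KO libraries and 4.16 to 5.37 FPKM in the SYK-WT libraries. Of 12 markers of blood, fibroblast and endothelial cells, 11 stayed under 1 FPKM in every library, and LAPTM5 was the exception, at 6.03 and 5.14 FPKM in SYK-KO EGF cells, 2.78 and 2.97 FPKM in SYK-KO cells, 5.03 and 5.38 FPKM in SYK-WT EGF cells and 4.52 and 4.37 FPKM in SYK-WT cells. The 2 SYK-WT libraries stood further apart than the other pairs, with a median gap of 0.15 on the log2 scale over all tested loci, against 0.0669 to 0.0828 in the other groups. Loci of low FPKM step by the worth of 1 fragment, and these steps put the depth at 22800000 to 26800000 fragments per library, provided that each library's FPKM were divided by its own fragment total.

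Proteasome genes were among the abundant transcripts of these cells. Of the 45 standard subunits, assembly factors, activators and inhibitor listed, 44 passed the filter of 1 FPKM in 2 or more libraries and entered the test, and PSMA8, the testis-specific alpha subunit, was listed at 0 throughout. With PSMB10, PSME1 and PSME2 of the immunoproteasome, 47 members were tested, and 45 of them had a mean above the median of all tested loci (9.26 FPKM). PSMD8, a lid subunit of the cap, averaged highest at 417 FPKM over the 8 libraries, followed by SEM1 at 344 FPKM. The lowest tested member was PSMD5, a chaperone of the cap's base, at 4.93 FPKM. Among the catalytic subunits, PSMB5, PSMB6 and PSMB7 lay within 98.5 to 161 FPKM in all libraries. Levels varied little: in 46 of 47 members the highest library was under 2 times the lowest, and SEM1 was the exception with a ratio of 2.01.

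**Figure D1:**
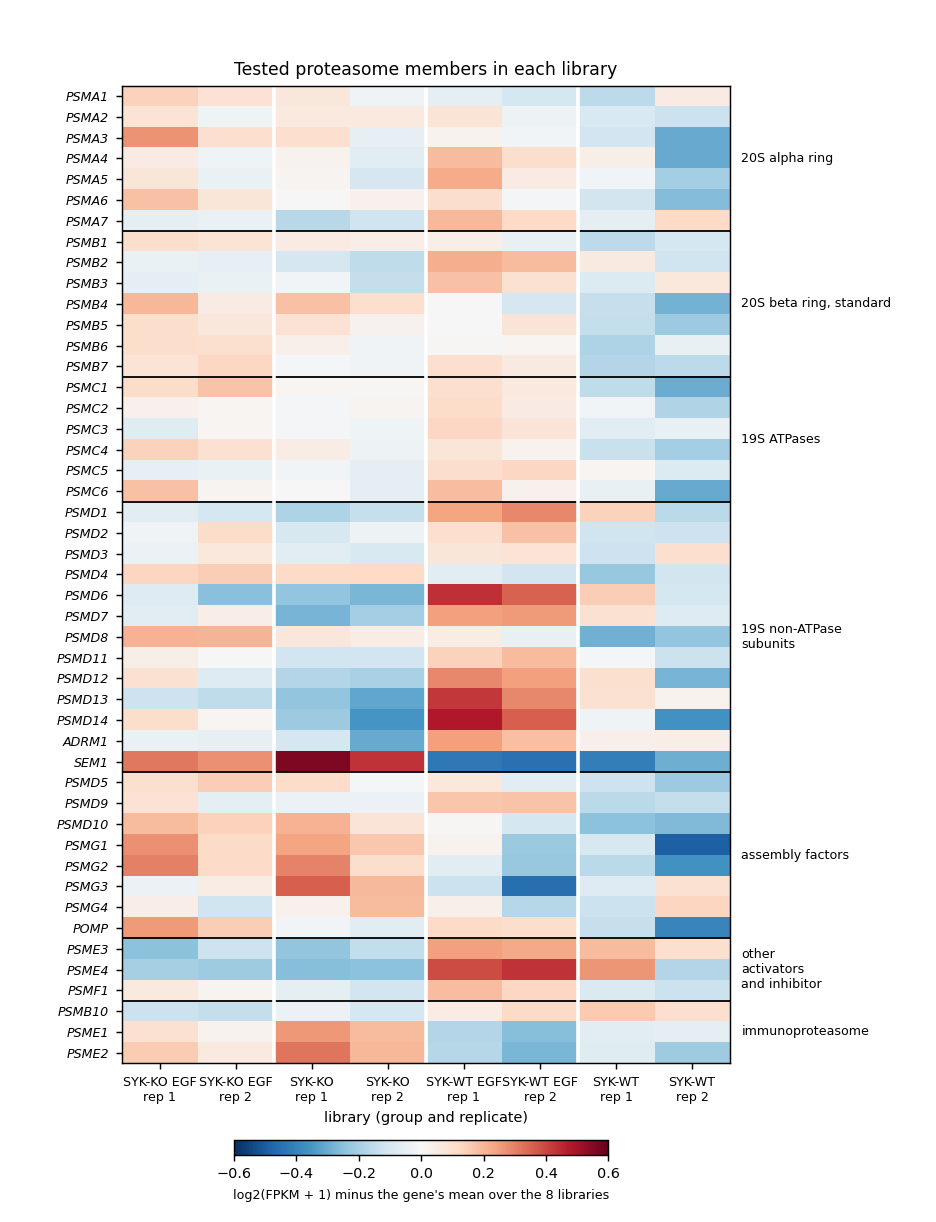
Each cell shows log2(FPKM + 1) of 1 tested member in 1 library minus that gene's mean over the 8 libraries, with members grouped by role from top to bottom and libraries from left to right. SEM1 was high in all SYK-KO libraries, while PSMD6, PSMD13, PSMD14 and PSME4 were highest in the SYK-WT EGF libraries.

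The bases before the start of 5 members are printed. PSMD14 and PSMD11 were given as defining genes, and SEM1 and PSMG1 rose most in untreated SYK-KO cells. PSMD9 and PSMD14 were among the 15 members that rose with EGF in SYK-WT cells, where POMP and PSMD6 rose more than PSMD9. Each run is the 250 bases before the annotated start, read 5′ to 3′ along the gene, from RefSeq promoters on GRCh38.p14. Capitals mark the antioxidant response element core TGACNNNGC, to which NRF1 and its relatives bind, and the CCAAT box, on either strand. In PSMD14 a CCAAT box overlaps the same box on the opposite strand.
PSMD14 at chr2:161308175-161308424, plus strand: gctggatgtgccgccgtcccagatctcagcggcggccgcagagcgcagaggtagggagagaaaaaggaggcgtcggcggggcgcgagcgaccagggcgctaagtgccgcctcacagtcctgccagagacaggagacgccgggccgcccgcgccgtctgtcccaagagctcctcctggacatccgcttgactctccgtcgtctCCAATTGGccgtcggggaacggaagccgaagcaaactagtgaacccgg
PSMD11 at chr17:32444260-32444509, plus strand: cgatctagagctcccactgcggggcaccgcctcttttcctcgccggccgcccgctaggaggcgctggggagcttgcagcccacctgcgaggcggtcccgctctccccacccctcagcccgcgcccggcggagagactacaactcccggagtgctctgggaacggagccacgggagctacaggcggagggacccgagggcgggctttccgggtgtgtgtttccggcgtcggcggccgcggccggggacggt
PSMD9 at chr12:121888540-121888789, plus strand: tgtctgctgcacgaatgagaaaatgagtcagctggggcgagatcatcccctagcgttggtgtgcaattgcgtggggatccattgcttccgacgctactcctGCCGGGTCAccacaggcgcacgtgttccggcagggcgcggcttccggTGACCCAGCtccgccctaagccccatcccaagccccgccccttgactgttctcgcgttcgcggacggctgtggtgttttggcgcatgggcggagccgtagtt
SEM1 at chr7:96709847-96710096, minus strand: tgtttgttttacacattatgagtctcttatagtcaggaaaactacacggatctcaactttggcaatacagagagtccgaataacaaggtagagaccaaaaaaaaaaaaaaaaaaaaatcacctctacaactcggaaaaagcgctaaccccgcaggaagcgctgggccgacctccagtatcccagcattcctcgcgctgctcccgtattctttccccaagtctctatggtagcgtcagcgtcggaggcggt
PSMG1 at chr21:39183452-39183701, minus strand: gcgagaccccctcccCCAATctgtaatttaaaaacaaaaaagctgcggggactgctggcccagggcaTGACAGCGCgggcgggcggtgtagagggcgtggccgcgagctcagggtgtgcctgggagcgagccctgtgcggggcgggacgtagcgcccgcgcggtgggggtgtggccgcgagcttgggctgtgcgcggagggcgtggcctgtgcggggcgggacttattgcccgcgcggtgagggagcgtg

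A promoter was found for 38 of the 44 tested standard members. The core TGACNNNGC was present in 9 of these 38 windows (23.7%), against 11.0% of 27305 promoters of the same length and 12.3% of the 9998 that belong to tested loci. PSMD9 held 2 such cores, ending 141 and 94 bases before the start, and PSMG1 held 1, ending 175 bases before it. The windows of PSMD14, PSMD11 and SEM1 held none. Of the members that rose with EGF in SYK-WT cells, 1 of 14 with a promoter held the core, which was PSMD9, against 8 of the 24 others. The CCAAT box was present in 17 of 38 windows (44.7%), against 33.0% of all promoters and 35.5% of those of tested loci, and the GC box GGGCGG in 24 of 38 (63.2%), against 42.3% of all promoters and 68.1% of those of tested loci. These counts describe letters in a window and say nothing of binding.

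EGF in SYK-WT cells raised 15 of the 44 standard members and lowered 0. The share that rose was 34.1%, against 14.7% of all 12112 tested loci that rose and 12.1% that fell. The members' median log2 fold change was 0.21, against 0.01 over all tested loci, and 40 of 44 were positive. In 37 of 44 members both SYK-WT EGF libraries lay above both SYK-WT libraries, as in 32.6% of all tested loci. At an unadjusted p under 0.05, limma found 28 higher and 1 lower, which was PSMG3. Here and below, calls are those of limma on log2(FPKM + 1) with a Benjamini-Hochberg adjusted p under 0.05 over all tested loci, and fold changes carry the standard error (SE).

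PSMD14 moved most. It is the deubiquitinase of the cap, which clips the ubiquitin chain off a substrate as it enters, and its locus lies on chromosome 2 at 162164786 to 162268228 in hg19. PSMD14 was listed at 73.0 and 68.2 FPKM in SYK-KO EGF cells, 58.2 and 52.8 FPKM in SYK-KO cells, 94.9 and 87.1 FPKM in SYK-WT EGF cells and 66.6 and 52.5 FPKM in SYK-WT cells. In both genotypes the EGF libraries lay above the untreated ones without overlap, and the SYK-WT EGF libraries were the highest of all. Its log2 fold change with EGF in SYK-WT cells was 0.61 ± 0.11 (SE; adjusted p = 0.00744, limma with Benjamini-Hochberg). The authors' deposited table also calls it, with q = 0.000583, as the sole member of the 44 in this comparison. That share was 2.27%, against 15.2% of all tested loci by the authors' q-values. The call was lost without SYK-WT EGF replicate 1 and when no filter on low values was used.

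Other cap subunits rose by less. Of the 13 non-ATPase subunits of the cap, 7 rose (53.8%, against 14.7% of all tested loci): PSMD2, PSMD6, PSMD7, PSMD8, PSMD11, PSMD13 and PSMD14. PSMD6, a scaffold subunit of the lid, stood at 47.7 and 45.0 FPKM in SYK-WT EGF cells and 38.9 and 32.5 FPKM in SYK-WT cells, a log2 fold change of 0.37 ± 0.10 (SE; adjusted p = 0.0268, limma with Benjamini-Hochberg). PSMD11, which clamps the lid to the ATPase ring, was listed at 40.3 and 39.4 FPKM in SYK-KO EGF cells, 36.3 and 36.3 FPKM in SYK-KO cells, 43.4 and 45.0 FPKM in SYK-WT EGF cells and 39.1 and 35.9 FPKM in SYK-WT cells. It rose by 0.23 ± 0.06 on the log2 scale with EGF in SYK-WT cells (SE; adjusted p = 0.0318, limma with Benjamini-Hochberg), with no overlap between the groups. SEM1 had a log2 fold change of -0.08 and PSMD4, a ubiquitin receptor, one of 0.08, and neither passed.

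In the core, 3 of 7 standard beta subunits rose (42.9%, against 14.7% of all tested loci). Of the 7 tested alpha subunits 0 passed, although 4 had an unadjusted p under 0.05. PSMB5, the chymotrypsin-like site, was listed at 160 and 156 FPKM in SYK-KO EGF cells, 158 and 152 FPKM in SYK-KO cells, 149 and 157 FPKM in SYK-WT EGF cells and 135 and 128 FPKM in SYK-WT cells. The untreated SYK-WT libraries were the lowest, and PSMB5 rose with EGF in SYK-WT cells by 0.22 ± 0.06 (SE) on the log2 scale, with an adjusted p of 0.0362 in limma with Benjamini-Hochberg. PSMB7, the trypsin-like site, was listed at 156 and 161 FPKM in SYK-KO EGF cells, 147 and 145 FPKM in SYK-KO cells, 158 and 153 FPKM in SYK-WT EGF cells and 130 and 132 FPKM in SYK-WT cells, and rose by 0.24 ± 0.06 (SE; adjusted p = 0.0168, limma with Benjamini-Hochberg). PSMB6, the caspase-like site, was listed at 121 and 120 FPKM in SYK-KO EGF cells, 114 and 111 FPKM in SYK-KO cells, 113 and 113 FPKM in SYK-WT EGF cells and 98.5 and 109 FPKM in SYK-WT cells. Its log2 fold change of 0.12 with EGF in SYK-WT cells did not pass, though both EGF libraries lay above both untreated ones. Of the 6 ATPases, PSMC1 and PSMC4 rose (33.3%, against the same 14.7%), by 0.31 and 0.22 on the log2 scale, and all 6 were positive. PSMB2, a structural beta subunit, was the other riser of the core at 0.24.

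Among assembly factors, 2 of 8 rose with EGF in SYK-WT cells (25%, against 14.7% of all tested loci). POMP, the chaperone that helps the beta ring onto the alpha ring, was listed at 59.6 and 55.3 FPKM in SYK-KO EGF cells, 49.2 and 47.5 FPKM in SYK-KO cells, 54.1 and 53.7 FPKM in SYK-WT EGF cells and 45.1 and 37.6 FPKM in SYK-WT cells, a log2 fold change of 0.38 ± 0.09 (SE; adjusted p = 0.0185, limma with Benjamini-Hochberg). PSMD9, a chaperone of the base, stood at 28.81 and 28.96 FPKM in SYK-WT EGF cells and 22.8 and 23.0 FPKM in SYK-WT cells, a log2 fold change of 0.32. Neither gene's groups overlapped. PSMG3, a chaperone of the alpha ring, went the other way at -0.30, which did not pass. PSMF1, a proteasome inhibitor in biochemical assays, rose by 0.26.

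The count changed with single libraries and with the settings of the fit. It was 27 without SYK-WT replicate 1, 0 without SYK-WT EGF replicate 1, 2 without SYK-WT EGF replicate 2, and 7 without either SYK-KO library, and 0 of the 15 calls held without each library in turn; it was 4 with no filter, 4 with library weights and 1 with only the SYK-WT groups fitted. With library weights 4 of 44 members and 1086 of 12112 loci rose, and with only the SYK-WT groups fitted 1 of 44 and 737 of 12112 rose. In the first of these fits the members' share was near that of all loci, and in the second it was below. With no filter 4 of 44 members and 939 of 27757 loci rose. These 2 shares are not alike, as all 44 members pass the filter and only 12112 of the loci do. Without SYK-WT replicate 2 the log2 fold changes of POMP, PSMD6, PSMD7 and PSMB2 were 0.25, 0.25, 0.16 and 0.15, more than 1.5 times smaller than with it.

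**Figure D2:**
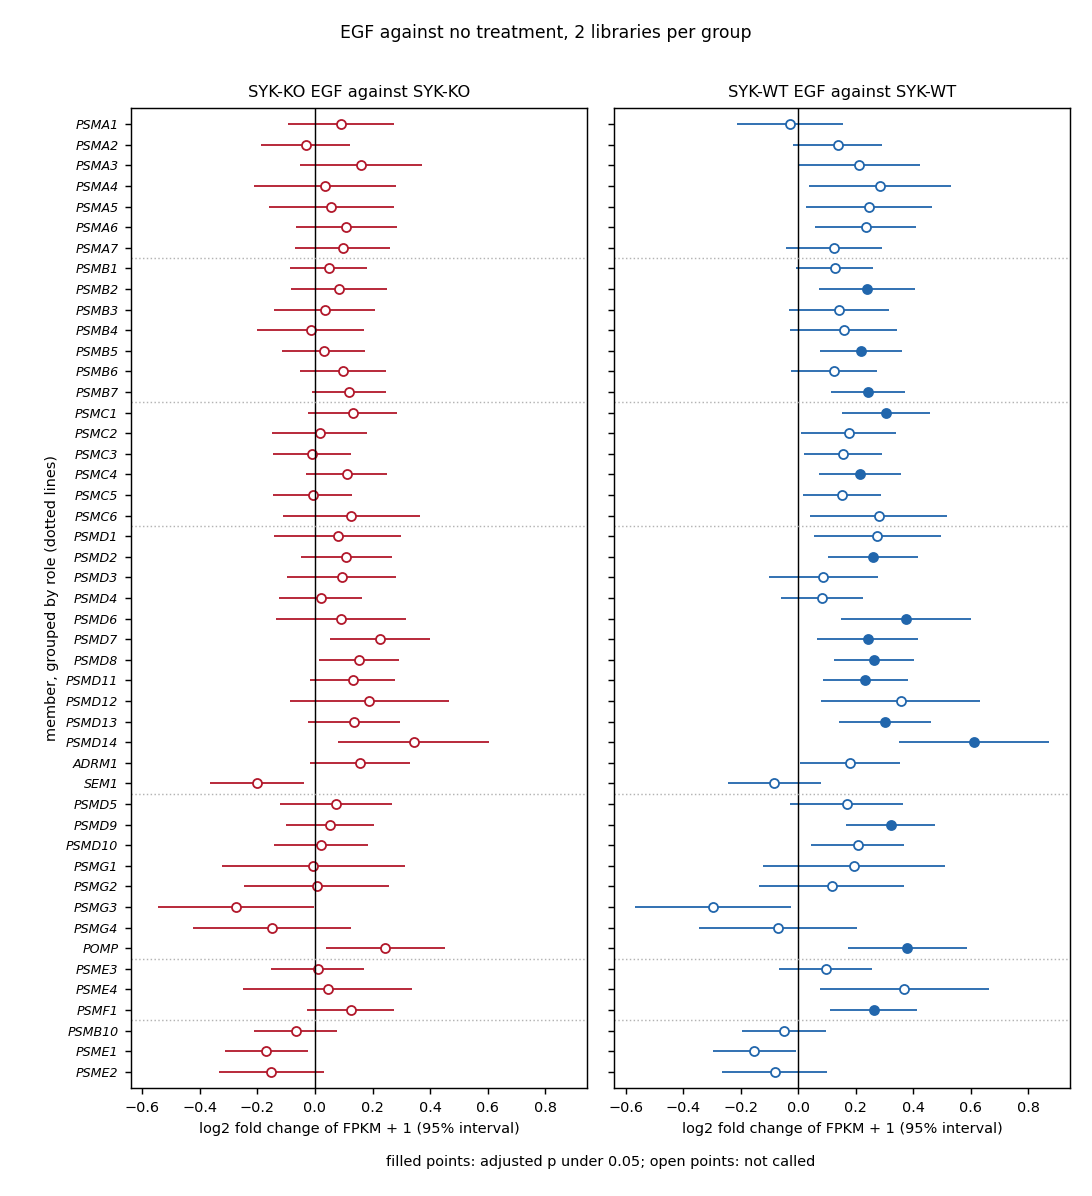
Points are log2 fold changes of FPKM + 1 with EGF, in SYK-KO cells on the left and SYK-WT cells on the right, with 95% intervals from limma. Filled points mark an adjusted p under 0.05, reached by 0 standard members in SYK-KO cells, against 15 in the SYK-WT pair.

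In SYK-KO cells EGF moved 0 of the 44 standard members past the threshold in limma, where 6.67% of all tested loci rose and 5.13% fell. At an unadjusted p under 0.05, 4 were higher and 2 (SEM1 and PSMG3) lower. The median log2 fold change of the members was 0.08, 36 of 44 were positive, and in 25 both SYK-KO EGF libraries lay above both SYK-KO libraries, as in 32.4% of all tested loci. All 15 members that rose in SYK-WT cells were positive in SYK-KO cells, from 0.03 for PSMB5 to 0.34 for PSMD14. PSMD14 had an adjusted p of 0.0932 in limma with Benjamini-Hochberg, and passed when only the SYK-KO groups were fitted, with library weights and with the replicate block. Leaving out either SYK-WT library kept the members' median at 0.08, as these libraries enter the comparison through the shared spread alone. The number called moved with that spread, for members and for all tested loci.

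Whether the response to EGF differed between the genotypes was tested directly, and 0 of 44 members passed, as against 0.00826% of all tested loci. PSMD9 was the sole member with an unadjusted p under 0.05. The point estimates of 41 of 44 members were negative, with a median of -0.14 against -0.01 over all tested loci. A negative value means a smaller rise, or a larger fall, with EGF in SYK-KO cells than in SYK-WT cells. These estimates all use the same 8 libraries and the SYK-WT pair, whose gap was the widest, enters each one. For PSMD14 the difference was -0.27, with a 95% interval from -0.64 to 0.10, and for PSMD11 -0.10, with an interval from -0.31 to 0.11. Without SYK-WT replicate 1 the members' median was -0.17, and without SYK-WT replicate 2 it was -0.10. The median over all tested loci was -0.01 in each of these fits. Summed over the 44 members, FPKM averaged 4615 ± 59.7 in SYK-KO EGF cells, 4447 ± 108 in SYK-KO cells, 4510 ± 118 in SYK-WT EGF cells and 3978 ± 32.6 in SYK-WT cells (SD, n = 2 each). The untreated SYK-WT libraries were the lowest in this sum, and the 6 other libraries lay within 4371 to 4657.

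SYK-KO cells differed from SYK-WT cells in members of several roles, in both directions. Untreated, 10 of 44 standard members were higher and 4 lower in SYK-KO cells, or 22.7% and 9.09%, against 20.3% and 20.2% of all tested loci. With EGF, 5 were higher and 9 lower, or 11.4% and 20.5%, against 21.1% and 22.5% of all tested loci. The share higher untreated and the share lower with EGF lay near those of all loci, and the other 2 shares lay below them, a difference that was not tested. The 2 comparisons use different libraries, and the untreated one shares its SYK-WT libraries with the EGF comparison in SYK-WT cells.

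SEM1 showed the widest gap between the genotypes. It encodes a small acidic lid subunit that also binds BRCA2, and its coding locus lies on chromosome 7 at 96318079 to 96339203 in hg19. SEM1 was listed at 412 and 399 FPKM in SYK-KO EGF cells, 487 and 447 FPKM in SYK-KO cells, 245 and 242 FPKM in SYK-WT EGF cells and 248 and 269 FPKM in SYK-WT cells. All 4 SYK-KO libraries lay above all 4 SYK-WT libraries. The log2 fold change was 0.85 ± 0.07 untreated (SE; adjusted p = 0.00014, limma with Benjamini-Hochberg) and 0.73 ± 0.07 with EGF (SE; adjusted p = 0.000253, limma with Benjamini-Hochberg). Both calls held without any single library, and the authors' deposited table gives q = 0.000583 in each.

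Assembly factors were among the other members that were higher in SYK-KO cells. PSMG1 and PSMG2 form the chaperone that starts the alpha ring, and PSMD10 (gankyrin) is a chaperone of the base. PSMG1 stood at 23.3 and 20.7 FPKM in SYK-KO EGF cells, 22.6 and 21.5 FPKM in SYK-KO cells, 19.3 and 16.2 FPKM in SYK-WT EGF cells and 17.7 and 13.3 FPKM in SYK-WT cells. PSMG2 stood at 51.3 and 44.8 FPKM in SYK-KO EGF cells, 51.0 and 44.6 FPKM in SYK-KO cells, 39.5 and 35.1 FPKM in SYK-WT EGF cells and 36.8 and 31.9 FPKM in SYK-WT cells. No SYK-KO library of either gene overlapped the SYK-WT libraries of the same treatment. Untreated, PSMG1 rose by 0.50 ± 0.14 (SE; adjusted p = 0.0231) and PSMG2 by 0.47 ± 0.11 (SE; adjusted p = 0.0118), both in limma with Benjamini-Hochberg. The PSMG1 call was lost without either SYK-KO library and without SYK-WT replicate 2, where the estimate was 0.30, and without SYK-WT replicate 1 the estimate was 0.69. With EGF PSMG2 rose by 0.35 and PSMG1, at 0.30, did not pass. All 8 assembly factors were positive in the untreated comparison and 3 passed (37.5%, against 20.3% of all tested loci that were higher), the third being PSMD10 at 0.40. PSMD8 and PSMD4 of the cap were higher in both comparisons, PSMD8 by 0.32 untreated and 0.21 with EGF. PSMD4 stood at 117 and 118 FPKM in SYK-KO EGF cells, 116 and 116 FPKM in SYK-KO cells, 102 and 98.8 FPKM in SYK-WT EGF cells and 90.8 and 98.7 FPKM in SYK-WT cells. PSMB1, PSMB4, PSMB5 and PSMC1 rose in the untreated comparison, and their estimates with EGF, from 0.05 to 0.18, did not pass.

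Members lower in SYK-KO cells lay in the cap and among the alternative activators, with PSMB2 of the core as the exception. PSME4, the nuclear activator PA200, was listed at 8.27 and 8.17 FPKM in SYK-KO EGF cells, 7.92 and 7.97 FPKM in SYK-KO cells, 12.9 and 13.4 FPKM in SYK-WT EGF cells and 11.76 and 8.395 FPKM in SYK-WT cells. The groups did not overlap in either comparison, and the fall of -0.62 ± 0.13 with EGF passed (SE; adjusted p = 0.00667, limma with Benjamini-Hochberg), while -0.29 untreated did not. PSME3, the nuclear activator PA28 gamma, was listed at 35.8 and 39.0 FPKM in SYK-KO EGF cells, 36.0 and 38.3 FPKM in SYK-KO cells, 50.8 and 50.1 FPKM in SYK-WT EGF cells and 48.7 and 45.6 FPKM in SYK-WT cells. It fell in both comparisons, by 0.42 with EGF and by 0.34 untreated, without overlap.

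PSMD6 was listed at 33.1 and 29.2 FPKM in SYK-KO EGF cells, 29.5 and 28.8 FPKM in SYK-KO cells, 47.7 and 45.0 FPKM in SYK-WT EGF cells and 38.9 and 32.5 FPKM in SYK-WT cells. Its log2 fold change with EGF was -0.56 ± 0.10 (SE; adjusted p = 0.00316, limma with Benjamini-Hochberg), and -0.28 untreated did not pass. PSMD13, another lid subunit, was listed at 70.3 and 69.0 FPKM in SYK-KO EGF cells, 65.0 and 61.7 FPKM in SYK-KO cells, 103 and 93.9 FPKM in SYK-WT EGF cells and 81.9 and 77.8 FPKM in SYK-WT cells. It fell by 0.49 ± 0.07 with EGF (SE; adjusted p = 0.00128) and by 0.33 ± 0.07 untreated (SE; adjusted p = 0.00762), both in limma with Benjamini-Hochberg. PSMD7, the inactive partner of PSMD14, was listed at 72.8 and 78.6 FPKM in SYK-KO EGF cells, 62.7 and 66.3 FPKM in SYK-KO cells, 90.7 and 91.3 FPKM in SYK-WT EGF cells and 81.5 and 72.5 FPKM in SYK-WT cells, and fell by 0.26 with EGF and by 0.25 untreated. ADRM1, a ubiquitin receptor, also fell in both, though its untreated estimate of -0.24 was -0.14 without SYK-KO replicate 2, and PSMB2, PSMD1 and PSMD14 fell with EGF, PSMD14 by 0.36. PSMD14 had -0.09 untreated, where its groups overlapped.

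Within the cap, members stood on both sides. With EGF, 3 of 13 non-ATPase subunits were higher and 6 lower in SYK-KO cells. These shares were 23.1% and 46.2%, against 21.1% and 22.5% of all tested loci, and the difference was not tested. Of the 6 ATPases and 7 tested alpha subunits, 0 passed in either direction, with 1 ATPase and 2 alpha subunits at an unadjusted p under 0.05. Leaving out 1 library moved the counts of called standard members in both genotype comparisons, and those of all tested loci with them. The members' median log2 fold change was 0.11 untreated, and 0.08 to 0.13 with 1 library left out. With EGF it was -0.03, and -0.06 to -0.01 with 1 library left out. Calls that held without any single library were PSMD8, SEM1 and PSMD10 of the 14 untreated and PSMD6, PSMD13, SEM1, PSME3 and PSME4 of the 14 with EGF.

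**Figure D3:**
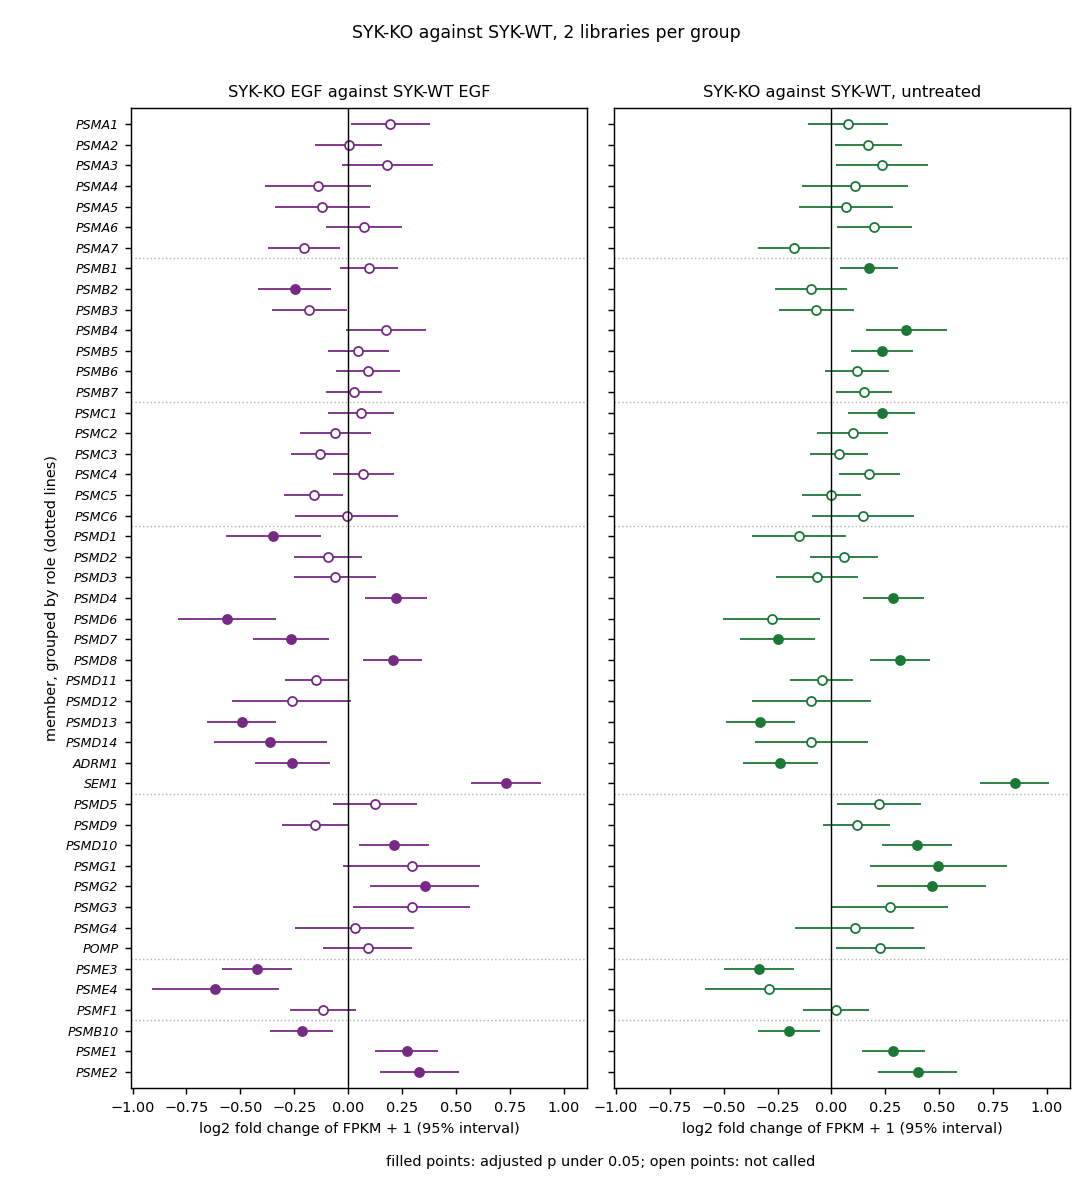
Points are log2 fold changes of FPKM + 1 in SYK-KO against SYK-WT cells, with EGF on the left and untreated on the right, with 95% intervals from limma. Filled points mark an adjusted p under 0.05: SEM1 lay farthest to the right in both, and PSME4 and PSMD6 farthest to the left with EGF.

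**Figure D4:**
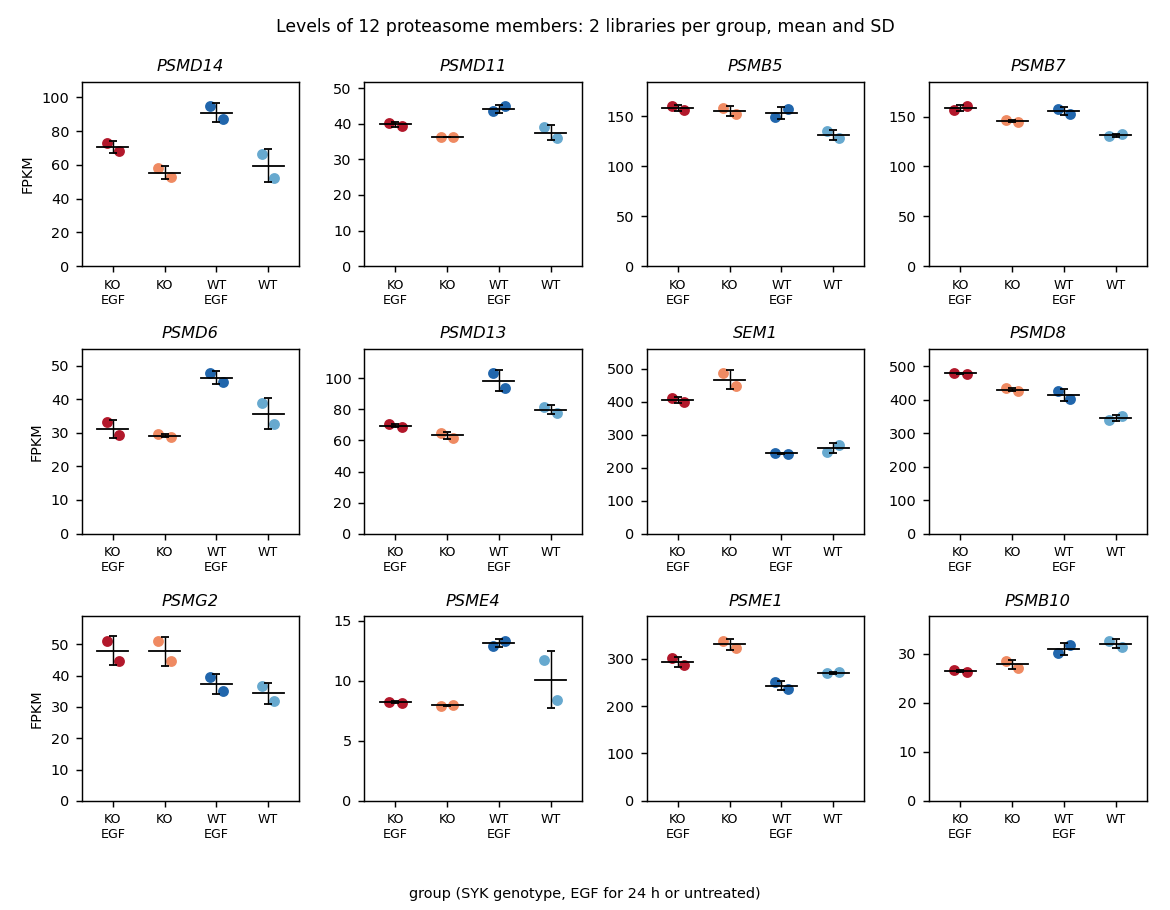
FPKM of 12 members by group, with a point per library and the mean and SD of 2 libraries in black, on axes that start at 0. PSMD14 was highest in SYK-WT EGF cells, SEM1 was higher in every SYK-KO library, and PSMB10 was lower in every SYK-KO library.

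The immunoproteasome could be followed in 3 of its 5 genes. PSMB8 and PSMB9, 2 of its catalytic subunits in the major histocompatibility region of chromosome 6, were listed at 0 in nearly every value: PSMB9 was at 0 in all 8 of its rows, and PSMB8 reached 0.0391 FPKM in 1 of its 8. Of the 222 chromosome 6 loci that the table also lists on an hg19 haplotype, 199 (89.6%) were at 0 in all libraries and 3 reached 1 FPKM, against 257 of 1150 other chromosome 6 loci (22.3%). RPS18, BAG6, FLOT1, ABCF1 and DDX39B, genes of that region that every cell uses and that were picked after their values were seen, reached at most 0.288 FPKM. The levels of PSMB8 and PSMB9 were therefore not analysed here, and neither were those of TAP1, TAP2 and TAPBP, so PSMB9 could not serve as a defining gene.

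PSMB10, the third catalytic subunit of the immunoproteasome, was listed at 26.7 and 26.4 FPKM in SYK-KO EGF cells, 28.5 and 27.2 FPKM in SYK-KO cells, 30.2 and 31.8 FPKM in SYK-WT EGF cells and 32.7 and 31.4 FPKM in SYK-WT cells. It was lower in every SYK-KO library, with log2 fold changes of -0.22 ± 0.06 with EGF (SE; adjusted p = 0.026, limma with Benjamini-Hochberg) and -0.20 ± 0.06 untreated (SE; adjusted p = 0.0379, limma with Benjamini-Hochberg). PSME1 and PSME2, the alpha and beta subunits of the activator PA28, went the other way. PSME1 was listed at 301 and 287 FPKM in SYK-KO EGF cells, 339 and 322 FPKM in SYK-KO cells, 250 and 236 FPKM in SYK-WT EGF cells and 269 and 272 FPKM in SYK-WT cells. PSME2 was listed at 227 and 213 FPKM in SYK-KO EGF cells, 255 and 234 FPKM in SYK-KO cells, 181 and 169 FPKM in SYK-WT EGF cells and 195 and 176 FPKM in SYK-WT cells. All SYK-KO libraries of both genes lay above all SYK-WT libraries. PSME1 rose by 0.27 with EGF (adjusted p = 0.0106) and 0.29 untreated (adjusted p = 0.0089), and PSME2 by 0.33 with EGF (adjusted p = 0.0121) and 0.40 untreated (adjusted p = 0.00596), all in limma with Benjamini-Hochberg. The PSMB10 call was lost in 5 of 8 fits that left out 1 library with EGF and in 7 of 8 untreated, where it was also lost with equalised medians, with only the 2 groups fitted and with library weights. With EGF the calls of PSME1 and PSME2 were lost without SYK-WT EGF replicate 2 and without SYK-KO EGF replicate 1, and untreated both were lost without SYK-KO replicate 1. EGF moved none of the 3 past the threshold in limma in either genotype, with 1 at an unadjusted p under 0.05 in each, and their estimates ran from -0.17 to -0.05.

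Genes around the proteasome gave a mixed picture. In a list of 15 genes of the NRF1 axis and proteins that bind the proteasome, 1 rose with EGF in each genotype. That share was 6.67%, against 6.67% of all tested loci in SYK-KO cells and 14.7% in SYK-WT cells. The riser was AKIRIN2, which carries proteasomes into the nucleus, by 0.28 in SYK-KO cells and 0.29 in SYK-WT cells. NFE2L1 lay within 56.3 to 66.4 FPKM in all libraries and passed in none of the comparisons. In SYK-KO against SYK-WT cells, 3 of the 15 rose and 5 fell with EGF (20% and 33.3%, against 21.1% and 22.5% of all tested loci), and 3 rose and 4 fell untreated (20% and 26.7%, against 20.3% and 20.2%). DDI2, the protease that activates NRF1, shares its row with RSC1A1 and had log2 fold changes of -0.77 with EGF and -0.92 untreated, both called. ZFAND2A, a stress-induced partner of the cap, rose by 0.63 with EGF and 0.56 untreated, TXNL1, a thioredoxin-like protein bound to the cap, rose by 0.64 untreated, and UCHL5, the deubiquitinase held by ADRM1, fell by 0.46 with EGF.

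Of 12 genes for ubiquitin, its activating enzymes and shuttle proteins, 3 rose with EGF in SYK-KO cells (25.0%) and 7 in SYK-WT cells (58.3%), against 6.67% and 14.7% of all tested loci, and the difference from all loci was not tested. UBA6, a ubiquitin-activating enzyme, rose by 0.39 in SYK-KO cells and 0.32 in SYK-WT cells, and the shuttle UBQLN1 by 0.30 in SYK-KO cells and 0.32 in SYK-WT cells. SQSTM1, an autophagy receptor, rose by 0.36 in SYK-KO cells. In SYK-WT cells it was listed at 127 and 137 FPKM with EGF and 105 and 115 FPKM untreated, without overlap. Between the genotypes, 2 of the 12 were higher and 1 lower in SYK-KO cells with EGF. These shares were 16.7% and 8.33%, against 21.1% and 22.5% of all tested loci. Untreated, 2 were higher and 0 lower, or 16.7% and 0%, against 20.3% and 20.2%. The gene that was lower with EGF was RAD23B, a shuttle to the cap, with a log2 fold change of -0.22. Of 9 regulators and neighbours of the immunoproteasome, 5 were tested. IRF1, a transcription factor induced by interferon, fell by 0.38 with EGF in SYK-WT cells. In SYK-KO against SYK-WT cells, STAT2 had log2 fold changes of -0.47 with EGF and -0.49 untreated and IRF9 of 0.41 with EGF and 0.47 untreated, all called.

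Several levels carry limits of their own. A pseudogene named after the gene is in RefSeq for 22 of the 44 tested standard members, among them PSMD14, PSMD8, SEM1 and POMP, and 8 share coordinates with another gene, among them PSMB7, PSMD6, PSMG2 and PSMF1; strand is not given in the sources used here, so their reads may be mixed. Fewer cells of a kind and less RNA per cell cannot be told apart in such bulk libraries. Of the symbols that match by letters only, PSMC3IP and PSME3IP1 were tested, and PSMC3IP was higher in SYK-KO cells by 0.30 with EGF and 0.22 untreated. PSMB11, the thymus subunit, reached at most 0.0396 FPKM.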

How the data were processed

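Total RNA of OVISE cells was sequenced as paired-end Illumina libraries, 2 in each of 4 groups, as the sample titles give them. The authors made the FPKM of each locus and library with TopHat, Cufflinks and Cuffdiff 2.2.1.3 on hg19, per the submitters' processing notes; the scaling of libraries and the use of strand are not stated. For 3 comparisons the deposited table also holds q-values (adjusted p-values), per the file headers.

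Symbols came from RefSeq accessions. Loci that reached 1 FPKM in 2 or more libraries (12112 of 27757) were transformed to log2(FPKM + 1), and fold changes on this scale understate those of low genes. The model (limma 3.58.1, R 4.3.3, trend on) held all 8 libraries and 1 mean per group, which leaves 4 residual degrees of freedom. P-values are two-sided and adjusted by Benjamini-Hochberg over all tested loci, with a threshold of 0.05. The fit was tested on simulated data. Depth was estimated from loci of at most 0.5 FPKM and GENCODE transcript lengths. Tables and plots used python 3.11.15, pandas 2.3.3 and matplotlib 3.10.9.

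All members are accounted for. Values in every library are given for PSMD14, PSMD11, the catalytic genes, PSMB10, PSME1, PSME2 and, per comparison, the 3 largest called rises and falls; of each list outside the members, the 3 largest called changes are named, except for some genes that are not reported here. Other members and genes were named after their values were seen. The members and lists were chosen with earlier results of these data known. Alternatives were no filter, a pseudocount of 0.1 FPKM, equalised library medians, only the 2 groups compared, the replicate number as a block, library weights, the authors' q-values and leaving out each library.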

Additional observations from a re-analysis of the deposited data

How the results depend on the processing

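Counts of members and of loci called moved with the settings and with single libraries, while no named member changed sign past the threshold under any alternative tried. With no filter on low values, the members called were 4 for EGF in SYK-WT cells (15 as reported), 9 untreated and 6 with EGF for SYK-KO against SYK-WT (14 and 14), and the loci called were 652 for EGF in SYK-KO cells (1429), 1571 for EGF in SYK-WT cells (3238) and 104 for the difference between the EGF responses (1). With only the 2 groups compared in the fit, members called were 4 for EGF in SYK-KO cells (0), 1 for EGF in SYK-WT cells and 7 for the untreated genotypes, and loci were 2646, 1254 and 3007 (4902). With library quality weights, members were 4 for EGF in SYK-KO cells and 4 for EGF in SYK-WT cells. Loci were 3024 and 1877 for these, and 2 for the difference. For the genotypes, members were 9 untreated and 23 with EGF, and loci were 3438 and 6754. These shares were 20.5% and 52.3% of members, against 28.4% and 55.8% of tested loci. The authors' deposited q-values called 1 of 44 members for EGF in SYK-WT cells, 4 for the untreated genotypes and 5 with EGF, against 15.2%, 21.5% and 24.0% of tested loci. The causes were not tested.

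Leaving out each library gave 0 to 4 members and 319 to 2984 loci for EGF in SYK-KO cells, 0 to 27 members and 1255 to 5108 loci for EGF in SYK-WT cells, 5 to 22 members and 2952 to 6835 loci (5277) for the genotypes with EGF, 5 to 20 members and 2460 to 5935 loci for the untreated genotypes, and 0 to 3 members and 0 to 867 loci for the difference; a lone library was then assumed to vary like the other groups. With the replicate block, members called were 1 for EGF in SYK-KO cells, 21 for EGF in SYK-WT cells, 18 and 20 for the genotypes with EGF and untreated, and 0 for the difference. The deviations of same-numbered libraries correlated with both signs between groups (from -0.381 to 0.27), so the numbers were not taken as pairs. A pseudocount of 0.1 FPKM gave 14 members for EGF in SYK-WT cells and equalised medians gave 13.

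With 2 libraries a group, small changes of members cannot be told from noise. The knockout and any property of the clones used cannot be told apart.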
